A study of Mus musculus with 4 samples.

Results

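The heavy chain variable segments (*Ighv* genes) each supply the first part of an antibody heavy chain. They were taken as all rows of the count table whose GENCODE symbol on mm10 began with Ighv and whose biotype was IG_V_gene, provided that a row held at least 10 counts in at least 2 of the 4 libraries. GENCODE listed 113 such segments, 104 of them had a row in the table of 41214 genes, and 92 passed the limit, in 14 V families. The libraries were RNA-seq of unstimulated B220+ splenocytes, obtained after red cell lysis by positive selection on magnetic beads, and the ribosomal RNA was depleted before stranded paired-end sequencing. Both genotypes were on a C57BL/6 background. MIZ-1 △POZ cells carried *Mb1 Cre* together with the *Miz-1 floxPOZ* allele, so that Cre is made from the *Cd79a* (Mb1) promoter and the POZ domain of MIZ-1 is removed in B lineage cells. MIZ-1 WT cells were the controls with an intact POZ domain, and each genotype had 2 biological replicates. The question asked here was how much RNA came from each V segment and V family in the presence and absence of the POZ domain.

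A heavy chain gene is assembled in the bone marrow, when RAG recombinase joins a V, a D and a J segment and the joined exon is spliced to a constant region such as that of *Ighm*. Each mature B cell transcribes mainly the V segment it has joined, so the V segment RNA of a population reflects both how many cells chose a segment and how much heavy chain RNA each cell makes. Plasma cells make far more heavy chain RNA than resting B cells, and fewer cells of a kind cannot be told apart from less RNA per cell in bulk libraries.

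All 92 segments lay on the minus strand of chromosome 12 (GRCm38, chr12:113578504-116000461), spread over 2422 kb, and each was annotated with 2 exons, for the leader and for the V region. The annotated exons summed to between 347 and 480 bases, with a median of 353. No segment overlapped a gene on the opposite strand, and only *Ighv1-5* shared its strand position with another gene, the microRNA gene *Mir7094-2*. Replicates 1 and 2 of MIZ-1 WT held 44452007 and 43026814 counts on genes, those of MIZ-1 △POZ 46387209 and 43214303. Only uniquely aligned reads were counted, and alignments that were not unique made up between 42.8% and 44.1% of each library's tally. Reads outside genes took 27.2% and 25.5% in MIZ-1 WT but 21.6% and 21.1% in MIZ-1 △POZ, and the part of this difference in the results was not tested. Levels are given as CPM, counts scaled to a common library total with TMM factors, and a positive log2 fold change means a higher level in MIZ-1 △POZ cells.

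*Zbtb17*, which encodes MIZ-1, had 2087 and 1946 counts in MIZ-1 WT against 1774 and 1669 in MIZ-1 △POZ, or 47.8, 46.3, 37.3 and 38.0 CPM. Both MIZ-1 △POZ libraries lay below both MIZ-1 WT libraries. The log2 fold change was -0.32 (edgeR, Benjamini-Hochberg adjusted p = 0.00857). The counts cover all exons of the gene and so do not show the loss of those for the POZ domain.

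The limit of 10 counts left 12 annotated segments out, and 6 of these had no count in any library, namely *Ighv7-2*, *Ighv16-1*, *Ighv1-24*, *Ighv1-62-2*, *Ighv1-71* and *Ighv8-13*. Just below the limit stood *Ighv6-5*, with 12, 6, 5 and 6 counts in MIZ-1 WT replicates 1 and 2 and MIZ-1 △POZ replicates 1 and 2. *Ighv1-62-3* followed with 5, 7, 3 and 10 counts. Just above it stood *Ighv11-1* (14, 9, 15 and 10), *Ighv1-56* (11, 12, 23 and 7) and *Ighv2-7* (6, 5, 27 and 16). *Ighv2-7* was the 1 segment that passed through MIZ-1 △POZ alone, so its higher level there was partly set by the limit.

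The summed RNA of the V segments was higher in MIZ-1 △POZ. The 92 segments held 30469 and 35878 counts in MIZ-1 WT against 84237 and 73026 in MIZ-1 △POZ. These were 698 and 853 CPM against 1769 and 1663 CPM, or 776 ± 110 and 1716 ± 74.95 (SD, n = 2). Both MIZ-1 △POZ libraries stood well above both MIZ-1 WT libraries, and the difference was larger than the spread within either genotype. The ratio of the mean levels was 2.21, and the log2 fold change was 1.15 (standard error 0.10, 95% confidence interval 0.90 to 1.40, adjusted p = 0.00133 by edgeR with Benjamini-Hochberg adjustment). The exact two-sided permutation test over the 4 libraries gave p = 0.333 for the CPM values, the smallest p that 2 against 2 libraries allow.

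Variable and constant exons sit on the same heavy chain transcripts, so their counts were set against each other. The 7 constant region genes in the table (*Ighm*, *Ighg1*, *Ighg2b*, *Ighg2c*, *Ighg3*, *Igha* and *Ighe*) held 210433, 258545, 583227 and 509161 counts in the 4 libraries, in the order MIZ-1 WT replicates 1 and 2, then MIZ-1 △POZ replicates 1 and 2. *Ighd* had no row in the table. For every 100 constant region counts there were 14.5 and 13.9 V segment counts in MIZ-1 WT against 14.4 and 14.3 in MIZ-1 △POZ. Relative to *Ighm* alone the values were 15.0 and 14.3 against 15.9 and 16.1, which did not overlap. Relative to all constant regions, the MIZ-1 △POZ values fell between the MIZ-1 WT values (exact two-sided permutation p = 1). The constant regions themselves differed in make-up, since classes other than *Ighm* took 3.70% and 2.77% of their counts in MIZ-1 WT but 8.89% and 10.8% in MIZ-1 △POZ. These groups did not overlap.

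Most individual segments rose with the sum. In the edgeR fit across all 14554 tested genes, 66 of the 92 segments were higher in MIZ-1 △POZ at a Benjamini-Hochberg adjusted p under 0.05, against 21.1% of all tested genes that were higher. The 66 include *Ighv2-7*, which passed the count limit through MIZ-1 △POZ alone. None was lower in edgeR, against 18.9% of all tested genes, and the same fit gave 1 segment, *Ighv8-6*, a lower level at an unadjusted p under 0.05. DESeq2 called 66 higher, 64 of them among those called by edgeR, and 0 lower. The median log2 fold change of the 92 segments was 1.03, with quartiles at 0.61 and 1.32, beside a median of -0.01 and quartiles of -0.23 and 0.33 over all tested genes. Both MIZ-1 △POZ libraries lay above both MIZ-1 WT libraries for 76 segments, a pattern found in 37.2% of all tested genes, while 2 segments (*Ighv5-2* and *Ighv8-6*) had the opposite order and 14 overlapped. Without MIZ-1 WT replicate 1 the fit called 27 segments higher and 1 lower, and without MIZ-1 WT replicate 2 it called 39 higher and 0 lower, with medians of 1.04 and 1.10. The calls over all genes fell as well, from 3076 higher to 1367 and 1721 of 14554. When each library was scaled to its own summed *Ighv* counts, the calls became 4 higher and 9 lower and the median moved to -0.13.

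The 26 segments that were not called were mostly scarce ones. When the segments were ranked by CPM per kilobase of exon, 23 of the 26 were in the lower 46, and the 3 from the upper 46 were *Ighv1-9*, *Ighv1-42* and *Ighv1-80*. The mean level per kilobase ran from 0.763 for *Ighv11-1* to 221 for *Ighv1-26*, a 290-fold range with a median of 21.7. Across the 92 segments, level per kilobase and log2 fold change had a Spearman correlation of 0.30, given as a description, since segments of the same libraries share their cells and depth. The called segments had log2 fold changes from 0.36 (*Ighv1-81*) to 3.91 (*Ighv2-4*) and adjusted p values in edgeR from 0.000754 to 0.0472.

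Family 1, the J558 family, is the largest in C57BL/6 mice and supplied 44 of the 92 segments. Of these, 31 were higher, against 21.1% of all tested genes. The summed level of family 1 was 359 and 529 CPM in MIZ-1 WT against 953 and 953 CPM in MIZ-1 △POZ. The MIZ-1 WT libraries differed from each other, and both lay below the MIZ-1 △POZ libraries. The log2 fold change of the sum was 1.10 (standard error 0.17, adjusted p = 0.00550 by edgeR with Benjamini-Hochberg adjustment). *Ighv1-26*, the segment with the highest level per kilobase, stood at 39.7 and 45.8 CPM in MIZ-1 WT, against 97.8 and 127 CPM in MIZ-1 △POZ. *Ighv1-22* had the smallest p of all segments, with 18.9 and 21.0 CPM against 50.3 and 54.4 CPM. MIZ-1 △POZ replicate 2 was the higher for both, and neither overlapped between genotypes, with log2 fold changes of 1.40 (adjusted p = 0.00190) and 1.39 (adjusted p = 0.000754) in edgeR. *Ighv1-53* had 18.1 and 19.1 CPM against 44.4 and 32.8 CPM, and *Ighv1-55* had 17.2 and 21.95 CPM against 39.5 and 53.6 CPM. Their log2 fold changes were 1.05 and 1.25, with all MIZ-1 △POZ values above all MIZ-1 WT values. *Ighv1-82*, near the distal end of the locus, had 21.1 and 23.2 CPM against 29.8 and 38.0 CPM and a smaller log2 fold change of 0.62 (edgeR adjusted p = 0.0145). Its call was absent without MIZ-1 WT replicate 1 (adjusted p = 0.0922) or replicate 2 (adjusted p = 0.0536), and its direction turned, to -0.53, after scaling to summed *Ighv* counts.

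Of the 12 segments with the highest level per kilobase, 4 lay outside family 1, and all 4 were higher. *Ighv3-6* had 25.3 and 31.1 CPM in MIZ-1 WT against 86.3 and 63.4 CPM in MIZ-1 △POZ, and *Ighv6-3* had 28.0 and 24.7 against 85.7 and 65.8 CPM. Replicate 1 was the higher MIZ-1 △POZ library for both, and neither overlapped between genotypes. Their log2 fold changes were 1.41 (adjusted p = 0.00295) and 1.52 (adjusted p = 0.00159) in edgeR. *Ighv9-3* had 31.1 and 28.6 against 63.0 and 57.4 CPM, *Ighv10-1* had 16.7 and 16.3 against 36.2 and 33.7 CPM, and *Ighv10-3* had 12.8 and 11.7 against 25.4 and 26.0 CPM. *Ighv14-3* had 8.43 and 8.09 against 19.2 and 20.2 CPM. In the last 4 segments the replicates lay close together and the genotypes apart, with log2 fold changes of 1.01, 1.08, 1.07 and 1.25 and adjusted p values of 0.00108, 0.000856, 0.00108 and 0.000887 in edgeR. Scaled to summed *Ighv* counts, *Ighv9-3*, *Ighv10-1*, *Ighv10-3* and *Ighv1-53* had values just below zero (-0.15, -0.08, -0.09 and -0.11), so as shares of the locus they were not higher.

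Of the 14 V family sums, 12 were higher in MIZ-1 △POZ and 0 lower in the edgeR fit, against 21.2% of all rows higher in the same fit. No family sum was lower at an unadjusted p under 0.05 and DESeq2 also called 12 higher and 0 lower. Family 3 had 36.0 and 39.2 CPM in MIZ-1 WT against 116 and 125 CPM in MIZ-1 △POZ, with a log2 fold change of 1.68 (standard error 0.07, edgeR adjusted p = 0.000420). Family 5 had 69.0 and 63.7 against 157 and 124 CPM, with a log2 fold change of 1.08 (edgeR adjusted p = 0.00200). The genotypes were apart in both families. The log2 fold changes of families 2, 6, 7, 9, 10 and 14 were 1.24, 1.32, 1.32, 1.13, 1.08 and 0.96, and those of families 4 and 8 were 0.83 and 0.66. Families 12 and 15, each with a single segment, were not called, with log2 fold changes of -0.08 (edgeR adjusted p = 0.848) and 0.21 (edgeR adjusted p = 0.435). Family 12 turned to 0.27 without MIZ-1 WT replicate 1 and to 0.17 without MIZ-1 △POZ replicate 2. The calls over all rows also fell when either MIZ-1 WT library was left out. Without MIZ-1 WT replicate 1, 8 families were called, and the calls of families 2, 4, 8 and 11 were absent. Without MIZ-1 WT replicate 2, 9 families were called, and those of families 2, 8 and 11 were absent.

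The shares of the families describe usage within the locus, apart from the rise of the whole. Family 1 took 51.5% and 62.0% of V segment counts in MIZ-1 WT against 53.9% and 57.3% in MIZ-1 △POZ. Family 5 followed with 9.88% and 7.46% against 8.86% and 7.43%, and family 9 with 6.33% and 4.91% against 5.50% and 5.50%. For these families the MIZ-1 △POZ values lay within or across the range of the MIZ-1 WT values. The same held for family 2 (5.98% and 4.54% against 6.69% and 4.31%), family 6 (6.59% and 4.76% against 6.89% and 5.62%), family 7 (2.24% and 1.71% against 2.40% and 1.96%), family 10 (4.22% and 3.29% against 3.48% and 3.59%) and family 14 (4.20% and 3.34% against 2.80% and 3.80%). The groups of libraries thus overlapped in 8 of 14 families.

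In the other 6 families the genotypes did not overlap, which with 2 libraries against 2 is weak evidence of a difference (exact two-sided permutation p = 0.333 for each, the smallest possible). Families can separate in this way with no change in usage, so their number alone does not show a difference. Family 3 took 5.15% and 4.59% in MIZ-1 WT against 6.54% and 7.54% in MIZ-1 △POZ, and family 11 took 0.233% and 0.170% against 0.735% and 0.320%. Both shares were higher in each MIZ-1 △POZ library, but with the 14 segments that stood out in 1 library removed, *Ighv11-2* among them, the share of family 11 was lower in MIZ-1 △POZ and the difference in family 3 was smaller (4.65% and 4.93% against 6.74% and 5.35%). Family 4 took 1.01% and 1.23% against 0.922% and 0.896%, and family 8 took 2.00% and 1.56% against 1.05% and 1.48%. Family 12 took 0.381% and 0.201% against 0.138% and 0.101%, and family 15 took 0.312% and 0.237% against 0.123% and 0.160%. These 4 small families had lower shares in both MIZ-1 △POZ libraries, but with the same 14 segments removed family 4 overlapped (1.13% and 1.49% against 1.16% and 1.07%). The level of families 4 and 8 in CPM was higher. In family 8 this came from *Ighv8-12*, with 540 and 511 counts against 854 and 1030, as the other 3 members had log2 fold changes below 0 and were not called. With 1 MIZ-1 WT library left out, either one, 11 families did not overlap, and without MIZ-1 △POZ replicate 2 the number was 10, by construction, as a lone library can overlap less often.

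**Figure D1:**
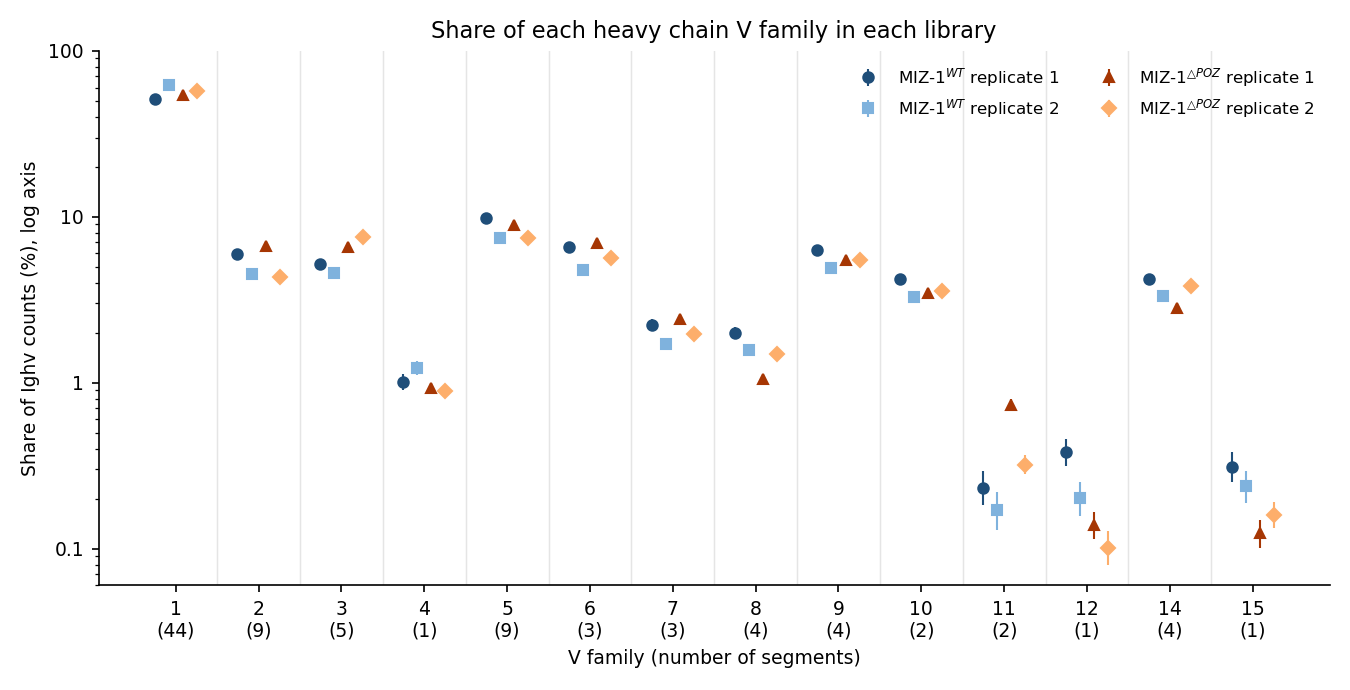
Share of all V segment counts (log axis, percent) taken by each V family, with one symbol per library and 95% exact binomial (Clopper-Pearson) intervals that cover counting error only. Families 3 and 11 sit higher and families 4, 8, 12 and 15 lower in both MIZ-1 △POZ libraries, and the remaining 8 families overlap; with *Ighv11-2* and the other segments that stood out in 1 library removed, family 11 turns lower and family 4 overlaps.

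Grouped by place in the locus, families 2 and 5, which lie nearest to the D segments, took 15.9% and 11.999% in MIZ-1 WT against 15.6% and 11.7% in MIZ-1 △POZ. The distal families 1 and 8 took 53.5% and 63.6% against 54.9% and 58.8%, and all other families took 30.7% and 24.4% against 29.5% and 29.5%. Of these other families, *Ighv10-3* and *Ighv15-2* lie within the stretch of family 1. All 3 zones overlapped between genotypes, and the replicates of a genotype differed by more than the genotypes did in the 2 outer zones. Among the segments of families 2 and 5, 16 of 18 were higher in CPM, against 21.1% of all tested genes. The 16 include *Ighv2-7*, which passed the count limit through MIZ-1 △POZ alone. Among those of families 1 and 8 it was 32 of 48, and among the others 18 of 26. Start position had a Spearman correlation of -0.15 with log2 fold change and of 0.06 with level per kilobase over the 92 segments.

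**Figure D2:**
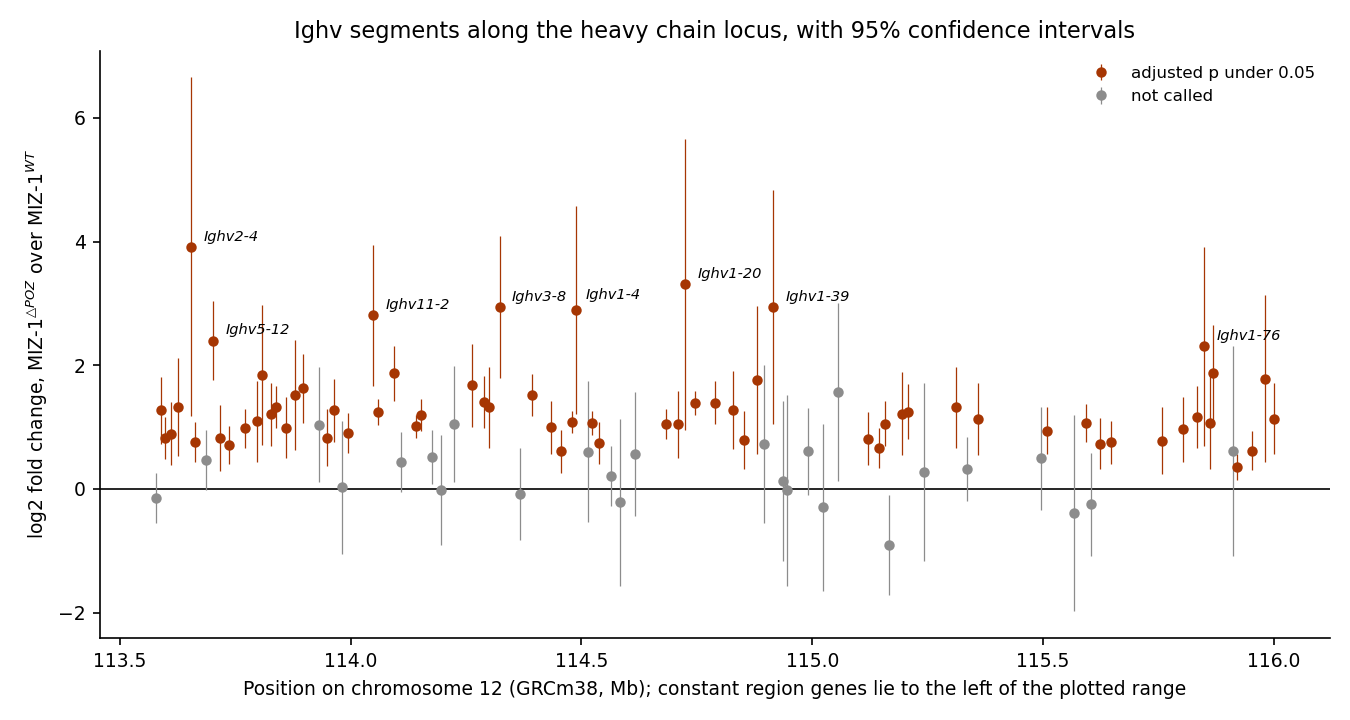
Log2 fold change of each of the 92 segments by position on chromosome 12 (GRCm38, megabases), with 95% confidence intervals from edgeR; filled red symbols are the 66 called segments and grey ones the 26 others. Called segments occur along the whole 2422 kb, and the 8 labelled ones have log2 fold changes of at least 2; scaled to summed *Ighv* counts, only 4 segments remain higher and 9 are lower.

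Scaling to the summed *Ighv* counts showed which segments changed beyond the locus. Higher in usage were *Ighv5-12*, *Ighv11-2*, *Ighv9-1* and *Ighv3-8*, 4 of 92 against 20.6% of all tested genes, and 9 were lower against 18.8%, so both shares were below the background. *Ighv5-12* made up 0.528% and 0.318% of V segment counts in MIZ-1 WT against 1.16% and 0.804% in MIZ-1 △POZ, and *Ighv9-1* made up 0.702% and 0.566% against 1.18% and 0.893%. Both had higher shares in each MIZ-1 △POZ library. Their usage log2 fold changes were 1.22 (adjusted p = 0.0196) and 0.71 (adjusted p = 0.0254), and their log2 fold changes without that scaling were 2.40 and 1.87, all from edgeR with Benjamini-Hochberg adjustment. The 9 segments lower in usage were *Ighv5-2*, *Ighv9-2*, *Ighv12-3*, *Ighv15-2*, *Ighv8-6*, *Ighv1-59*, *Ighv1-67*, *Ighv1-81* and *Ighv1-82*. *Ighv5-2*, the segment closest to the D segments among the 92, had 150 and 167 counts in MIZ-1 WT against 156 and 150 in MIZ-1 △POZ, a similar count in all 4 libraries while the locus rose. Its share was 0.492% and 0.465% against 0.185% and 0.205% (usage log2 fold change -1.29, edgeR adjusted p = 0.00311). *Ighv1-81* was higher in CPM (12.2 and 12.9 against 16.3 and 15.8) with a log2 fold change of 0.36, yet its usage was lower at -0.80 (edgeR adjusted p = 0.00342), so its direction depended on the scale. Its call in CPM was absent without either MIZ-1 WT replicate (adjusted p = 0.137 and 0.0839). *Ighv8-6*, with 28 and 32 against 15 and 19 counts, had the lowest log2 fold change in CPM, -0.91 (edgeR adjusted p = 0.0728), and a usage log2 fold change of -2.05. These segments were chosen for naming after their values were seen.

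Some of the largest fold changes came from 1 library. A limit chosen after the data were seen, a share in 1 library at least 2 times that in the next, marked 14 segments. In MIZ-1 △POZ replicate 1 these were *Ighv2-4*, *Ighv1-20*, *Ighv1-39* and *Ighv11-2*, and in MIZ-1 △POZ replicate 2 they were *Ighv1-4*, *Ighv1-76* and *Ighv3-8*. MIZ-1 WT replicate 2 had *Ighv1-9* and *Ighv1-42*, and MIZ-1 WT replicate 1 had *Ighv1-43*, *Ighv8-11*, *Ighv8-4*, *Ighv3-3* and *Ighv1-37*, all 5 at low counts. By share, every library thus had its own segments that stood out, but shares depend on the V segment total, which was larger in MIZ-1 △POZ. In CPM no segment marked in a MIZ-1 WT library reached 2 times the next library. *Ighv1-9* had 92.3 CPM in MIZ-1 WT replicate 2 against 55.0 CPM in MIZ-1 △POZ replicate 2. *Ighv1-42* had 19.5 CPM in MIZ-1 WT replicate 2 against 18.3 CPM in MIZ-1 △POZ replicate 1. *Ighv1-37* had 0.527 CPM in MIZ-1 WT replicate 1 against 0.588 and 0.569 CPM in MIZ-1 △POZ. Without the 14, the summed level was 629 and 705 CPM in MIZ-1 WT against 1405 and 1388 CPM in MIZ-1 △POZ. The ratio of means was 2.09. In edgeR 59 of the remaining 78 segments were higher and 0 lower, against 21.1% and 18.9% of all tested genes. Of the 14 removed, 7 were called higher.

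*Ighv1-39* was the most abundant of the 14 by mean level per kilobase. It had 635 and 635 counts in MIZ-1 WT, 9208 in MIZ-1 △POZ replicate 1 and 1525 in replicate 2, and in replicate 1 it made up 10.9% of V segment counts (95% exact binomial interval 10.7% to 11.1%). Both MIZ-1 △POZ libraries lay above MIZ-1 WT, but 1 of them far above the other. The log2 fold change of 2.94 (edgeR adjusted p = 0.0287) was 1.23 without MIZ-1 △POZ replicate 1 and 3.72 without replicate 2. The call was absent without MIZ-1 WT replicate 1 (adjusted p = 0.136) or replicate 2 (adjusted p = 0.124). *Ighv2-4* had 37, 30, 1021 and 93 counts and *Ighv1-20* had 66, 51, 1141 and 137 counts, in MIZ-1 WT replicates 1 and 2 and MIZ-1 △POZ replicates 1 and 2. *Ighv1-4* had 149, 172, 508 and 1989 counts, *Ighv1-76* had 339, 380, 744 and 2964, and *Ighv3-8* had 234, 156, 957 and 2194. The first 2 of these 5 peaked in MIZ-1 △POZ replicate 1 and the others in replicate 2, with the genotypes apart in each. Without the library that stood out, their log2 fold changes went from 3.91 to 1.44 (*Ighv2-4*), from 3.31 to 1.19 (*Ighv1-20*), from 2.90 to 1.52 (*Ighv1-4*), from 2.30 to 0.91 (*Ighv1-76*) and from 2.95 to 2.16 (*Ighv3-8*). Without the other MIZ-1 △POZ library they were 4.78, 4.14, 3.60, 3.01 and 3.46. The calls of *Ighv2-4*, *Ighv1-20*, *Ighv1-4* and *Ighv1-76* were absent without either MIZ-1 WT library, with adjusted p values of 0.155, 0.152, 0.116 and 0.165 without replicate 1 and of 0.156, 0.162, 0.0942 and 0.135 without replicate 2, each from edgeR. A robust fit of edgeR's quasi-likelihood model ended the calls of these 4 segments and of *Ighv1-39* and *Ighv3-8*, with adjusted p values from 0.0639 to 0.210.

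In MIZ-1 WT, *Ighv1-9* stood out by share, at 1080 and 3882 counts beside 2185 and 2413 in MIZ-1 △POZ. Replicate 2 was the highest of all libraries, where *Ighv1-9* made up 10.8% of V segment counts (95% exact binomial interval 10.5% to 11.1%). Its log2 fold change of -0.21 (edgeR adjusted p = 0.780) became -0.87 without MIZ-1 WT replicate 1 (adjusted p = 0.0223) and 1.03 without replicate 2 (adjusted p = 0.0178), so its direction depended on which library was kept. *Ighv1-80* had 879 and 2977 counts in MIZ-1 WT against 1684 and 4572 in MIZ-1 △POZ, high in replicate 2 of both genotypes, and the groups overlapped. Its log2 fold change was 0.62 (edgeR adjusted p = 0.509), and it was -0.02 without MIZ-1 WT replicate 1, 1.79 without MIZ-1 WT replicate 2, 1.20 without MIZ-1 △POZ replicate 1 and -0.35 without MIZ-1 △POZ replicate 2. With the replicate number as a block in edgeR, *Ighv1-80* was called higher at 0.68 (adjusted p = 0.00593), although the replicate numbers were not taken as pairs.

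**Figure D3:**
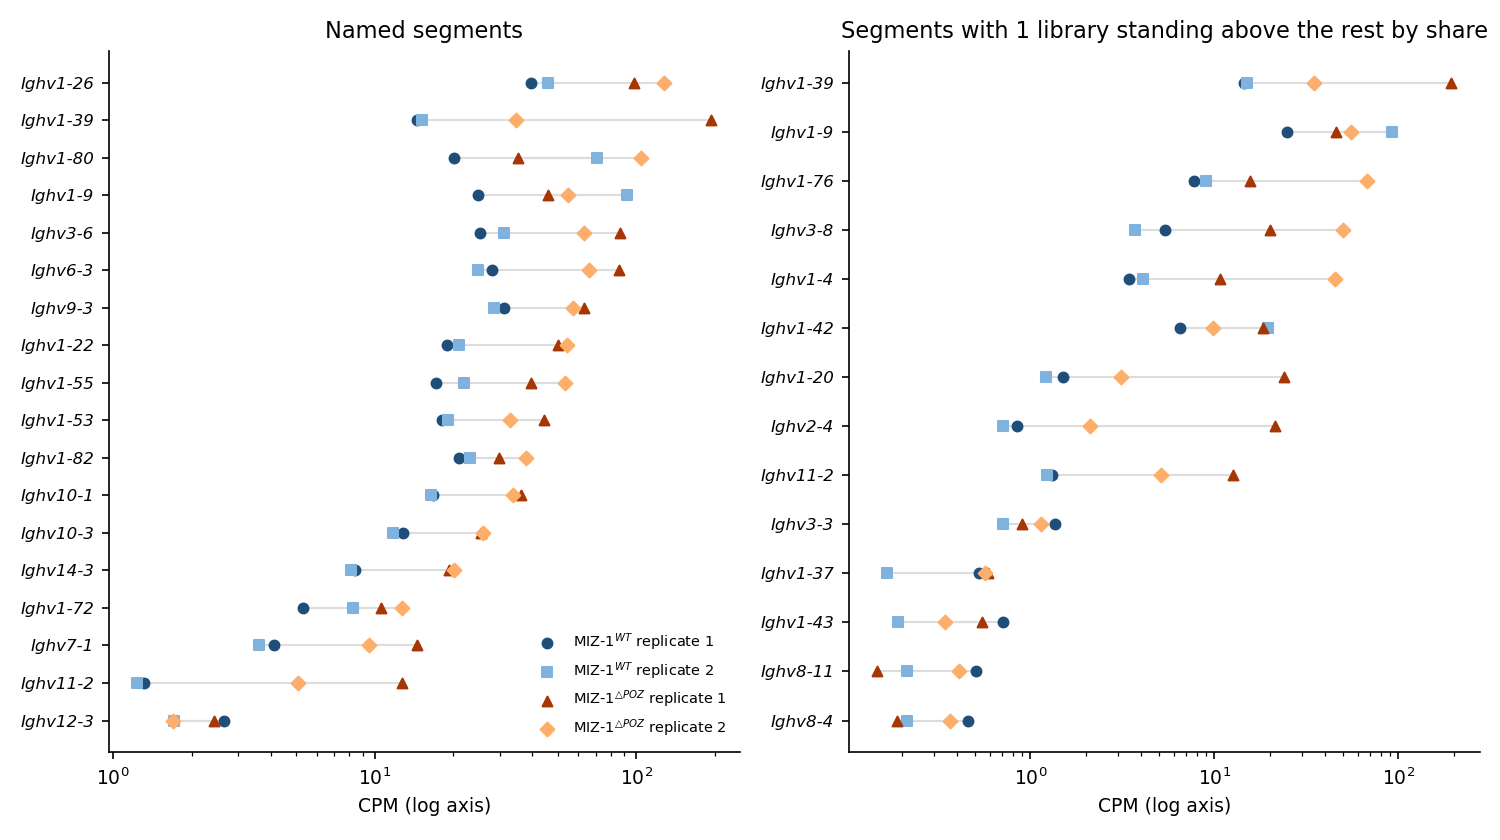
Level (CPM, log axis) of each named segment and of the 14 segments with a share in 1 library at least 2 times that in the next, one symbol per library and a grey line over their range. Most named segments have both MIZ-1 △POZ symbols to the right of both MIZ-1 WT symbols; *Ighv1-39* reaches 193 CPM in MIZ-1 △POZ replicate 1 against 34.7 in replicate 2, and scaled to summed *Ighv* counts *Ighv1-80*, *Ighv9-3*, *Ighv1-53*, *Ighv1-82*, *Ighv10-1*, *Ighv10-3* and *Ighv1-72* turn below zero.

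The spread between replicates of a genotype was wider for V segments than for other genes of like level. The median absolute log2 difference between replicates was 0.22 in MIZ-1 WT against 0.45 in MIZ-1 △POZ over the 92 segments. It was 0.12 and 0.14 in 2603 genes between the quartiles of the segments' CPM. A difference above 1 on the log2 scale was found in 6 segments in MIZ-1 WT and in 16 in MIZ-1 △POZ, or 6.52% and 17.4%, against 2.38% and 2.096% of all tested genes. In the 46 segments between those quartiles it was found in 1 and 8, against 0.692% and 0.768% of the 2603 genes. Log2 CPM over the 92 segments had a Pearson correlation of 0.967 between the MIZ-1 WT replicates, 0.904 between the MIZ-1 △POZ replicates and between 0.877 and 0.934 across genotypes. The MIZ-1 △POZ replicates were thus less alike than the closest pair of libraries from different genotypes. The effective number of segments, the inverse Simpson index of the shares, was 45.7 and 29.7 in MIZ-1 WT against 32.1 and 37.2 in MIZ-1 △POZ, with overlapping groups (exact two-sided permutation p = 1). The 10 most abundant segments took 35.4% and 44.4% against 42.5% and 42.0%, and 50% of the counts was reached with 17 and 13 segments against 14 and 14. Intervals on counts here cover counting error only, since they treat the reads of 1 library as independent and hold no spread between animals. Reads copied by PCR were not told apart by molecular identifiers, so even the counting error may be understated.

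The sequence of *Ighv1-39* is shown because it was the most abundant segment in a library, together with the bases in which it differs from *Ighv1-42*. *Ighv1-42*, its nearest relative among the segments, also stood out in 1 library, MIZ-1 WT replicate 2, but by share only. It had 19.5 CPM there and 18.3 CPM in MIZ-1 △POZ replicate 1. Each sequence here is the coding strand of the V exon after its first 11 bases, up to 300 bases, 5′ to 3′, read from the GENCODE transcripts of GRCm38, on the minus strand. Capitals mark the 22 bases of *Ighv1-39* (chr12:114914599-114914892) that differ from *Ighv1-42*.

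Ighv1-39: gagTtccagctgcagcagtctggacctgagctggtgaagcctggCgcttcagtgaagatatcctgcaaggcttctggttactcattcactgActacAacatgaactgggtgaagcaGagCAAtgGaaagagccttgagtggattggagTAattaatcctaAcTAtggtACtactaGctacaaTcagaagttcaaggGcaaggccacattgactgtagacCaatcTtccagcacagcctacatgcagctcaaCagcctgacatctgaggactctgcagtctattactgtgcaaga

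*Ighv1-20*, high in MIZ-1 △POZ replicate 1, has a near copy in *Ighv1-37*, which had only 23, 7, 28 and 25 counts in the libraries in the order used above. The 2 segments are shown because a read that misses their 4 differences could not by itself be assigned. Capitals mark these bases in *Ighv1-20* (chr12:114723772-114724065) and *Ighv1-37* (chr12:114896238-114896531).

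Ighv1-20: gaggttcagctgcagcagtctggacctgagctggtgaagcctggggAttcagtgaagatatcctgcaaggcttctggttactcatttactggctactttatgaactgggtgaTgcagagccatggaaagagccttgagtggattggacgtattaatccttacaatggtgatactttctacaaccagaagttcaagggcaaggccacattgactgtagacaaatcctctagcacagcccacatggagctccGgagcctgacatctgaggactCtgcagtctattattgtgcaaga

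Ighv1-37: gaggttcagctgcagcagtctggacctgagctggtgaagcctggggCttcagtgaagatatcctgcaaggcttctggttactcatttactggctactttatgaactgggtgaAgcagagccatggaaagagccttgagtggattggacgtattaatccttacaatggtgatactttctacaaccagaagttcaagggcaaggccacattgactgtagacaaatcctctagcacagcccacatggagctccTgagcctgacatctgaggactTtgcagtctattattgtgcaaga

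Of 4 segments tied to known specificities, 3 were higher in edgeR and *Ighv12-3* was not called. *Ighv11-2* and *Ighv12-3* encode antibodies to phosphatidylcholine that are common among B-1 cells. *Ighv11-2* had 57 and 52 counts in MIZ-1 WT against 604 and 224 in MIZ-1 △POZ, or 1.31 and 1.24 against 12.7 and 5.10 CPM. Both MIZ-1 △POZ libraries were above both MIZ-1 WT libraries, with replicate 1 the higher. Its log2 fold change was 2.81 (standard error 0.46, edgeR adjusted p = 0.00731), with 2.00 without MIZ-1 △POZ replicate 1 and 3.33 without replicate 2, and its usage log2 fold change was 1.63 (edgeR adjusted p = 0.0327). The call was absent without MIZ-1 WT replicate 1 (adjusted p = 0.0549). Family 11, which consists of *Ighv11-2* and the scarce *Ighv11-1*, had a log2 fold change of 2.58 (edgeR adjusted p = 0.00785), and 0.03 with the segments that stood out in 1 library removed, which leaves *Ighv11-1*. The sum was 1.79 without MIZ-1 △POZ replicate 1 and 3.09 without replicate 2, and its call was absent without MIZ-1 WT replicate 1 or 2 (adjusted p = 0.0551 and 0.0531). *Ighv12-3* had 116 and 72 counts in MIZ-1 WT against 116 and 74 in MIZ-1 △POZ, and the groups overlapped. Its log2 fold change was -0.08 (edgeR adjusted p = 0.844), or 0.27 without MIZ-1 WT replicate 1 and 0.16 without MIZ-1 △POZ replicate 2, while its usage was lower at -1.27 (edgeR adjusted p = 0.0348).

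*Ighv7-1*, used in responses to phosphorylcholine, had 4.13 and 3.62 CPM in MIZ-1 WT against 14.5 and 9.48 CPM in MIZ-1 △POZ. The genotypes did not overlap, and the log2 fold change was 1.63 (edgeR adjusted p = 0.00443). *Ighv1-72*, which C57BL/6 mice use against the hapten NP, had 5.32 and 8.23 CPM against 10.6 and 12.7 CPM. The 2 MIZ-1 △POZ libraries were again higher, with a log2 fold change of 0.78 (edgeR adjusted p = 0.0364). That call was absent without MIZ-1 WT replicate 1 (adjusted p = 0.120) or MIZ-1 △POZ replicate 2 (adjusted p = 0.0652), and after scaling to summed *Ighv* counts the value was -0.35. Reads of *Ighv1-72* are hard to place, as set out next, so its level is uncertain.

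*Ighv11-2* and *Ighv11-1* are shown because the first was called and the second was not, with log2 fold changes of 2.81 and 0.02. Capitals mark the 4 bases in which *Ighv11-2* (chr12:114048241-114048536) and *Ighv11-1* (chr12:113981879-113982174) differ.

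Ighv11-2: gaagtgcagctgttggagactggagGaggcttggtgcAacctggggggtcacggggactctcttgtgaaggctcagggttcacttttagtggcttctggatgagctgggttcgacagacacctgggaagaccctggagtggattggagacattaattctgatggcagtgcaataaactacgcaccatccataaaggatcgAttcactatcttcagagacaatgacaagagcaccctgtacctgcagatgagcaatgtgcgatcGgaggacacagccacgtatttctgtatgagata

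Ighv11-1: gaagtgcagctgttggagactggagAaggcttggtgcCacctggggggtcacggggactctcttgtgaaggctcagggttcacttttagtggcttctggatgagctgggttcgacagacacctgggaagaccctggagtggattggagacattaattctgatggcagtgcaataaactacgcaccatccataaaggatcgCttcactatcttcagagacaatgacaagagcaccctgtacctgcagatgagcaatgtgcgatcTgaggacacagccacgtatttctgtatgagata

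How much of a segment can be counted at all depends on its neighbours in sequence. For each segment the 50-base windows of its annotated transcript that occur in no other GENCODE gene were counted, since a read of that length from such a stretch can be placed without help from its mate. The median share of unique windows was 78.5% over the 92 segments, with quartiles at 64.1% and 88.9%, and 13 segments were unique throughout. Family medians ran from 54.6% in family 11 and 66.9% in family 1 to 96.7% in family 3 and 100% in families 7, 12 and 15. Below 50% were *Ighv2-2*, *Ighv2-4*, *Ighv11-1*, *Ighv1-37*, *Ighv1-50*, *Ighv1-52*, *Ighv1-53*, *Ighv1-61*, *Ighv1-72* and *Ighv1-84*, whose counts are uncertain for that reason. The nearest other segment had a median identity of 95.1%, from 74.4% for *Ighv15-2* to 99.0% for *Ighv1-72*. The share of unique windows had Spearman correlations of -0.06 with level per kilobase and of -0.09 with log2 fold change (n = 92), as a description. The 12 segments under the count limit had a lower median of 55.6%.

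*Ighv1-72* had the lowest share among the 92 segments, 7.49%, and shared more windows with *Ighv1-62-3* than with any other gene. *Ighv1-62-3* stayed under the count limit with 5, 7, 3 and 10 counts. The pair is shown to make plain how little sets them apart. Capitals mark the 2 differences that fall in the printed stretch of *Ighv1-72* (chr12:115757984-115758277) and *Ighv1-62-3* (chr12:115460999-115461292), out of 3 in the whole V exon.

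Ighv1-72: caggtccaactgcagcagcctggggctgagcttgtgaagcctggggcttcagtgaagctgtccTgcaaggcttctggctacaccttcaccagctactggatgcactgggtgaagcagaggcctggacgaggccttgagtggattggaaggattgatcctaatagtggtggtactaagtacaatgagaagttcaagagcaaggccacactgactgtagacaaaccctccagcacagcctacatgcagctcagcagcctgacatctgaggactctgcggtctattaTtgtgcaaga

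Ighv1-62-3: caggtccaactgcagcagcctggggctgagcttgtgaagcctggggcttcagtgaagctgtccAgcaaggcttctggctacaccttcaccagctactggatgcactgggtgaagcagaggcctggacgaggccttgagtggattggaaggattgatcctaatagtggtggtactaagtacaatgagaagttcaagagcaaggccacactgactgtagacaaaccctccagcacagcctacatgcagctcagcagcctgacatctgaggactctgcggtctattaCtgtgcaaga

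*Ighv1-71* and *Ighv1-62-2* have identical V exons and had 0 counts in all libraries. Their unique windows made up 2.58% and 8.21%, so this count of 0 does not show whether they were transcribed. The shared sequence is given once at the position of *Ighv1-71* (chr12:115742207-115742506), with no capitals because there is no difference.

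Ighv1-71: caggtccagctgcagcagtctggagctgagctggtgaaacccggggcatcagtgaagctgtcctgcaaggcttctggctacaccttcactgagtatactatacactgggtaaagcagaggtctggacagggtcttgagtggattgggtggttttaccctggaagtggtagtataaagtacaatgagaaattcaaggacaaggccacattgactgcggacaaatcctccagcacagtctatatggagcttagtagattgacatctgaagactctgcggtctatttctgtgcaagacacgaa

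Other genes of the heavy chain pathway were called in both directions. Of 38 listed genes, 37 had a row and 33 were tested, with 16 higher and 9 lower in edgeR, beside 21.1% and 18.9% of all tested genes, and a median log2 fold change of 0.26. Without MIZ-1 WT replicate 1 the calls were 13 higher and 4 lower, and without MIZ-1 WT replicate 2 they were 13 higher and 5 lower. All 7 constant region genes were higher in edgeR and 6 in DESeq2, among them *Ighg2c*, with 966 and 1518 counts in MIZ-1 WT against 10208 and 21501 in MIZ-1 △POZ and a log2 fold change of 3.60. The signalling chains *Cd79a* and *Cd79b* were both lower, with log2 fold changes of -1.44 and -0.23 (edgeR adjusted p = 0.00157 and 0.0277). The paper, which also set a limit on the fold change, reports a decrease for *Cd79a* but not for *Cd79b*. It also measured both proteins and reports that neither was reduced in MIZ-1 △POZ cells. The *Mb1 Cre* allele uses the *Cd79a* promoter, and its part in the *Cd79a* value was not tested. Of the recombination and surrogate light chain genes, 4 of 8 had enough counts to be tested, and *Rag1*, the recombinase subunit, had 48 and 85 counts against 25 and 29. *Vpreb3* and *Rag1* were lower and 0 were higher in this group, also at an unadjusted p under 0.05 and in DESeq2. Their log2 fold changes were -0.71 and -1.39. *Rag2* had 1, 6, 0 and 0 counts and *Vpreb2* none.

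Among 8 factors of locus contraction and the B lineage, *Ezh2* was higher (log2 fold change 0.31), *Pax5*, *Yy1* and *Ebf1* were lower (-0.46, -0.21 and -0.48), and the other 4 were not called. The octamer motif lies in every V segment promoter. Its coactivator *Pou2af1* had 489 and 518 CPM against 728 and 748 CPM and was higher (log2 fold change 0.55), while *Pou2f1* and *Pou2f2*, which bind the motif, were lower (-0.71 and -0.60). Of 2 repair genes that act on mutated V segments, *Ung*, the uracil glycosylase, had 427 and 368 counts in MIZ-1 WT against 640 and 532 in MIZ-1 △POZ and was higher (log2 fold change 0.46), and *Msh6* (0.26) was called higher in DESeq2 but not in edgeR (adjusted p = 0.0574). Of 7 plasma cell factors, 6 were higher. *Jchain*, the joining chain of secreted IgM and IgA, had 302 and 615 CPM against 1947 and 1786 CPM, and *Prdm1* had 6.23 and 6.83 against 17.4 and 17.02 CPM, with log2 fold changes of 2.03 and 1.40. *Irf4* was not called (-0.09).

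Markers of other cell states moved along with the V segments, and their part in the *Ighv* result was not tested. The 8 plasma cell markers summed to 912 and 1235 CPM in MIZ-1 WT against 2740 and 2580 CPM in MIZ-1 △POZ, 6 were higher and 0 lower in edgeR, at an unadjusted p under 0.05 and in DESeq2, and *Jchain* was the most abundant. The 5 germinal center markers summed to 146 and 149 against 213 and 173 CPM, with 4 higher and 1 lower, *Bcl6*. *Bcl6* was the most abundant in MIZ-1 WT, at 114 and 105 CPM. In MIZ-1 △POZ it had 42.7 and 43.0 CPM, below *Mybl1* at 86.4 and 66.4 CPM. The 8 marginal zone markers were all higher, at 3097 and 3099.9 against 3879 and 4182 CPM, led by *Cr2*. Of 7 B-1 markers, 5 were higher and 0 lower in edgeR and in DESeq2, and the sum, led by *Spn*, was 90.8 and 96.4 against 131 and 121 CPM. *Cd5* and *Spn* were not called, with log2 fold changes of 0.26 and 0.10 (edgeR adjusted p = 0.469 and 0.264). Of 6 follicular markers, 1 was higher and 3 were lower, with sums of 3997 and 4099.9 against 3961 and 4292 CPM. The higher one was again *Cr2*, which made up most of the sum at 2147 and 2169 against 2471 and 2656 CPM, and the other 5 had log2 fold changes below 0. In all of these except the follicular list, both MIZ-1 △POZ sums exceeded both MIZ-1 WT sums.

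Of 10 pan-B markers, 8 were lower and 0 higher in edgeR, with 9 lower at an unadjusted p under 0.05 and in DESeq2, and the sums were 11384 and 11708 against 9479 and 9907 CPM, led by *Ms4a1*. B cell identity genes were thus abundant in all 4 libraries, as the label states. All 8 macrophage markers were higher, with sums of 689 and 933 against 4189 and 2615 CPM and *Vcam1* the most abundant. The 7 T cell markers were low in both genotypes, at 63.4 and 49.3 against 61.1 and 65.5 CPM, with *Cd4* the 1 that was higher and *Lck* the most abundant. The 5 plasmacytoid dendritic cell markers, led by *Irf8*, summed to 906 and 872 against 824 and 796 CPM, with 1 lower and 0 higher in edgeR, at an unadjusted p under 0.05 and in DESeq2. The 5 neutrophil markers, led by *S100a9*, summed to 13.1 and 3.85 against 6.45 and 12.7 CPM, with *Ly6g* and *Elane* at 0 in some libraries, and the 4 erythroid markers, led by *Hbb-bs*, to 38.0 and 46.6 against 30.2 and 87.5 CPM. None of the tested neutrophil or erythroid genes was called in edgeR, in DESeq2 or at an unadjusted p under 0.05. Sex-linked genes also separated the genotypes, since *Xist* had 49 and 60 counts in MIZ-1 WT against 38145 and 40838 in MIZ-1 △POZ and 4 of 4 Y-linked genes were lower in MIZ-1 △POZ. Sex and genotype therefore cannot be told apart for any of the V segment values.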

How the data were processed

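The authors deposited untransformed counts for each Ensembl gene in 4 libraries, obtained by trimming the reads, mapping them to mm10 with TopHat2 (version 2.1.0 in the submitters' processing notes) and counting them with HTSeq; the strand setting was not stated. Symbols, biotypes, positions and transcripts came from GENCODE for GRCm38. Genes that reached 10 counts in 2 or more libraries were fitted together with edgeR 4.0.16 in R 4.3.3 (TMM, quasi-likelihood test, Benjamini-Hochberg adjustment, threshold 0.05). For family and total sums, the segment rows were replaced by their sum. Usage was tested with the summed *Ighv* counts of each library as offset. The alternatives were DESeq2 1.42.0 (Wald test, and its size factors within edgeR), other count filters, a robust fit, a replicate block, immunoglobulin segments left out of library sizes, and each library left out. Family shares were also computed per exon length, without the most abundant segments and with pseudogenes. The procedure was tested on simulated data. Named segments were the 12 with the highest level per kilobase, up to 5 called ones per direction by smallest p, *Ighv11-2*, *Ighv12-3*, *Ighv7-1* and *Ighv1-72*, and those beside the count limit; others were named after their values were seen. Segments and lists (heavy chain pathway; pan-B, plasma cell, marginal zone, follicular, B-1, germinal center, T cell, macrophage, plasmacytoid dendritic cell, neutrophil, erythroid and sex-linked markers) were chosen with earlier results of these data known. Some genes of these lists are not reported here.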

Additional observations from a re-analysis of the deposited data

How the results depend on the processing

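The summed *Ighv* level was higher under every alternative run, with log2 fold changes from 1.01 to 1.30 when 1 library was left out. A filter on a mean of 30 RPM (reads scaled to library size) left 9 segments, 7 of them higher, because fewer segments were tested. Of all 6052 genes tested under that filter, 1464 were higher. Scaling to summed *Ighv* counts left 4 segments higher and 9 lower, by its construction. With 1 library left out, the segments called higher numbered from 27 to 66, the families from 8 to 12, the pathway genes from 13 to 16 higher and from 4 to 11 lower, and the families whose shares did not overlap from 8 to 11. In these fits the lone library is assumed to vary like the other genotype. V segment counts per 100 constant region counts differed between genotypes by -0.09 to 0.52. Directions reversed under the same alternatives for *Ighv1-80* (-0.35 to 1.79), *Ighv1-9* (-0.87 to 1.03), *Ighv12-3* (-0.37 to 0.27) and family 12 (-0.37 to 0.27), and the cause was not tested. With the replicate block, *Ighv1-9* was 0.05004, *Ighv1-80* was called higher and *Ighv1-81* was not called; the correlation of replicate differences was -0.0688 over tested genes and 0.0802 over the segments, so the replicate numbers were not taken as pairs. Scaled to summed *Ighv* counts, *Ighv1-80* was -0.45, *Ighv9-3* -0.15, *Ighv1-53* -0.11, *Ighv1-82* -0.53, *Ighv10-1* -0.0778, *Ighv10-3* -0.0936, *Ighv1-72* -0.35 and *Ighv1-81* -0.80. Without the 14 segments that stood out in 1 library, an alternative chosen after seeing the data, the difference in the share of family 11, MIZ-1 △POZ minus MIZ-1 WT, was -0.0213 percentage points, that of family 3 was 1.25 and family 4 overlapped. Of 317 comparisons of named segments with alternatives, 262 kept direction and side of the threshold. Of the 8 segments with at most 32 counts in every library, 1 was called, against 21.1% of all tested genes that were higher. This was *Ighv2-7*, whose higher level was partly set by the count limit.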
